A study of Homo sapiens with 12 samples.

Results

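The peaks described here lie on genes of long noncoding RNAs (lncRNAs) and on no other kind of annotated gene. A peak was included if it overlapped at least 1 gene span that RefSeq classes as lncRNA on the human genome build hg38, by 1 bp or more on either strand, and touched no gene of any other class. Of 62412 peaks in the series, 1417 met this rule, which were 929 of the 34365 control peaks (2.70%) and 488 of the 28047 knockdown peaks (1.74%). They are called lncRNA-only peaks below.

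The study mapped N4-acetylcytidine (ac4C, acetylated cytidine) on the RNA of RBE cells, an established human line of intrahepatic cholangiocarcinoma, a cancer of the bile ducts inside the liver. Cells given lentivirus with a hairpin against NAT10 (sh-NAT10), selected with puromycin and expanded from resistant colonies, were set against cells labelled sh-NC, for which no separate treatment is described. RNA fragments pulled down with an antibody to ac4C were sequenced beside their inputs, in 12 libraries that form 4 groups of 3, an IP and an input per arm. The RNA is labelled polyA, while the protocol speaks of total RNA, and nothing says whether the replicates were separate cultures. The data used here are 1 deposited peak list per arm and no list per replicate, so the spread between replicates cannot be measured and no p-value between arms is given. Read depth is unknown. Peak lists hold no expression values, so less acetylation of an RNA and less of the RNA itself cannot be told apart.

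NAT10 is the enzyme that writes ac4C on ribosomal, transfer and other RNAs. lncRNAs are transcripts that encode no known protein. Some build nuclear structures, some carry small nucleolar RNAs (snoRNAs) or microRNAs within them, and many that were named only by their position have no known role. Their genes often have a few short exons set far apart, so a span drawn across such a gene is mostly intron.

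The sequence under a peak was read where the peak reached into a RefSeq window that runs from 250 bases before to 50 after a gene's start. Of the 236 lncRNA-only peaks up to 1000 bp wide, 7 were found to do so on the strand of the gene, at 5 starts. Windows cover only part of the genes, and 30 control and 38 knockdown peaks of this width touched a gene without one. Starts of such genes, NEAT1 among them, could not be searched, so the 7 are a minimum and not a share of all 236. The windows at 4 of the 5 starts are shown 5′ to 3′ (RefSeq, GRCh38.p14, gene strand), with the bases under the peak in capitals. The window of LOC124904704 could also be read and is described below without its sequence. NDST1-AS1 had the same peak in both lists, TMEM123-DT and LINC-PINT had theirs among the control peaks and HCG17 among the knockdown peaks.
NDST1-AS1: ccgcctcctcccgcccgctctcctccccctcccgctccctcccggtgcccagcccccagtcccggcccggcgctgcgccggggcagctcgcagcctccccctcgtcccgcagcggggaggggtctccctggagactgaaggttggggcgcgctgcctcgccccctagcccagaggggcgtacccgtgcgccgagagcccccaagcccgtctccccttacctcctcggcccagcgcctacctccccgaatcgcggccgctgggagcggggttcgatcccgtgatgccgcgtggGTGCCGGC
TMEM123-DT: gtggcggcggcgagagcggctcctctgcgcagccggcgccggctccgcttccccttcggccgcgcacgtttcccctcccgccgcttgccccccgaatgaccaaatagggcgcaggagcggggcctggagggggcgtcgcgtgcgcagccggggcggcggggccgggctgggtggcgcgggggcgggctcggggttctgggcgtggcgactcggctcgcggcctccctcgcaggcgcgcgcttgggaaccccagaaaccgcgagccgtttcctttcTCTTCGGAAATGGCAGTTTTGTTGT
LINC-PINT: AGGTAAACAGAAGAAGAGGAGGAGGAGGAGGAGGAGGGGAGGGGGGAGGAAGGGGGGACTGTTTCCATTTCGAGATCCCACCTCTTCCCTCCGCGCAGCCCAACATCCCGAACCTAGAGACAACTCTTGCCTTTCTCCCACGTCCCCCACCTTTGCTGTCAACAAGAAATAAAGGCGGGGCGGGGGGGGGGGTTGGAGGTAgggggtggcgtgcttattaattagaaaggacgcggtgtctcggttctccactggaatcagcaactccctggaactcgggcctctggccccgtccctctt
HCG17: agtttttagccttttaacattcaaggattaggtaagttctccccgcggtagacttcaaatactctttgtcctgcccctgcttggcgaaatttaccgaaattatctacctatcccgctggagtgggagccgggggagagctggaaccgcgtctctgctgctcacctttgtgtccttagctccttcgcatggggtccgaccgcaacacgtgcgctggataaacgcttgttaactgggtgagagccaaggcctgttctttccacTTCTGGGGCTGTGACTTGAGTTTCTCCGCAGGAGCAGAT
The NDST1-AS1 window is chr5:150485943-150486242 on the minus strand. It holds 8 bases of a 50 bp peak, whose deposited score was 23.5 as a control peak and 21.3 as a knockdown peak. The TMEM123-DT window is chr11:102452669-102452968 on the plus strand and holds the whole of a 25 bp peak with a score of 12.4. The LINC-PINT window is chr7:131106981-131107280 on the minus strand, and it holds 201 bases of a 659 bp peak, all before the start on which the window is built and 2187 to 2845 bp downstream of the outermost start of the annotated gene span. The HCG17 window is chr6:30326085-30326384 on the minus strand and holds 39 bases of a 50 bp peak, which also lies within HCG18.

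Cytidine made up 37.5% of the peak bases in the NDST1-AS1 window, 24.4% in that of LINC-PINT, 20.5% in that of HCG17 and 12.0% in that of TMEM123-DT. Over the 12917 lncRNA windows it made up 25.8% of all bases. In each of these 4 windows the share under the peak was lower than in the window as a whole. The whole window held 46.3% cytidine at NDST1-AS1, 34.3% at TMEM123-DT and 26.3% at HCG17. The motif CNNCNNCNNCNN, cytidines with 2 bases between them, was searched on both strands of each whole window, not under the peak alone. It was found on the gene strand of these 4 windows, as it was in 63.6% of lncRNA windows, and on either strand in 83.0%. A match may thus lie outside the peak, and the 8 peak bases of NDST1-AS1 are fewer than the motif's 12. At LOC124904704 a 125 bp control peak and a 25 bp knockdown peak overlapped each other at the start, and that window held no match on the gene strand. The peak bases in it were 16.9% cytidine for control and 20.0% for knockdown, the former below and the latter above the share in the whole window.

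lncRNA-only peaks were fewer after knockdown, and the shortfall lay in very wide peaks. The knockdown list held 52.5% as many of them as the control list (95% interval 47.1 to 58.6), beside 81.6% for all peaks and 82.3% for peaks in protein-coding genes only. For peaks in no annotated gene the value was 53.9% (46.0 to 63.2), with 432 control and 233 knockdown. Of lncRNA-only peaks over 10000 bp wide there were 767 control and 308 knockdown (40.2%, 35.2 to 45.8). Of those up to 1000 bp there were 111 control and 125 knockdown (112.6%, 87.3 to 145.3), and between these widths 51 and 55. Intervals are Wilson intervals for counting error only, which treat peaks as independent.

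Narrow peaks in protein-coding genes only were fewer after knockdown, at 79.45% of control (77.8 to 81.2). That interval lay below the one for narrow lncRNA-only peaks, but the separation did not hold without NEAT1 and SNHG16. Without the peaks on these genes, left out after the values were seen, the narrow lncRNA-only counts were 103 and 108 (104.9%, 80.1 to 137.2), and the intervals overlapped between 80.1 and 81.2. NEAT1 and SNHG16 had the largest rises, so leaving them out could only lower the ratio. Genes with large drops in narrow peaks, such as LINC00632 (6 and 0) and MEG3 (5 and 1), were kept. Of lncRNA-only peaks over 10000 and up to 100000 bp the knockdown list held 35.3% as many (29.95 to 41.5), and of protein-coding-only ones 59.0% (54.3 to 64.2). Above 100000 bp the intervals overlapped, at 52.5% (41.9 to 65.9) for lncRNA-only and 41.1% (32.2 to 52.5) for protein-coding-only peaks. Peaks in no annotated gene numbered 300 and 109 above 10000 bp (36.3%), and 102 and 85 up to 1000 bp (83.3%).

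**Figure D1:**
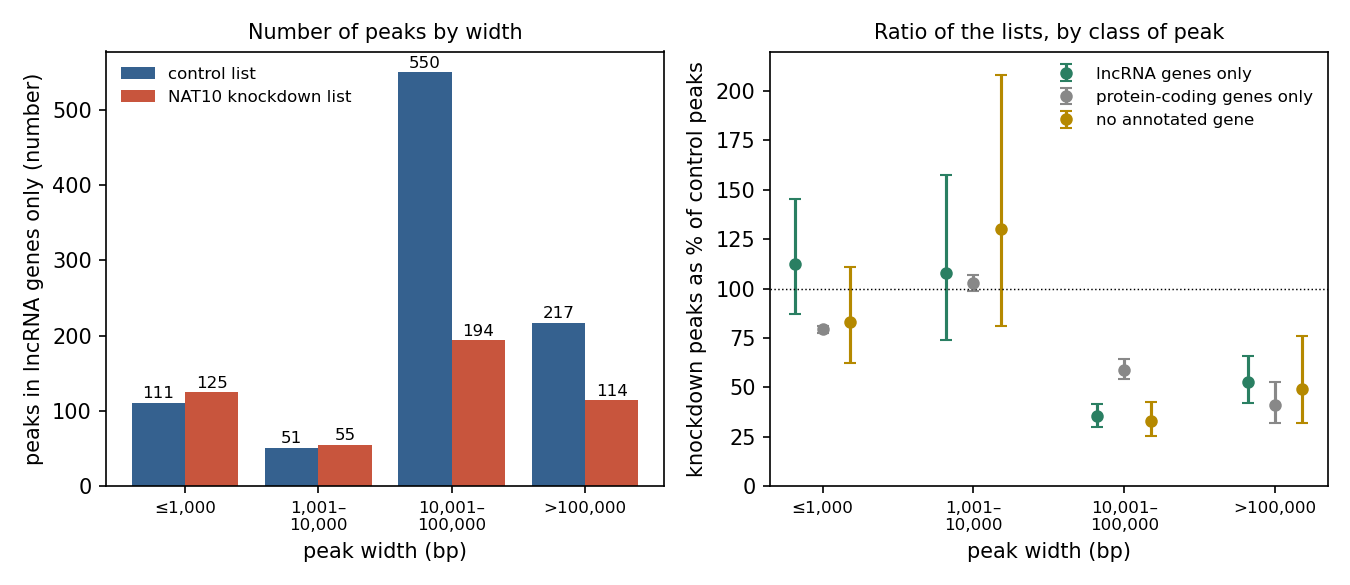
Left, number of lncRNA-only control and knockdown peaks by peak width in bp. Right, knockdown peaks as a percentage of control peaks in each width class, for peaks in lncRNA genes only, protein-coding genes only and no gene, with 95% intervals for counting error and a dotted line at 100. In the class that ends at 100000 bp, 550 control peaks stand beside 194 knockdown peaks, while up to 1000 bp there are 111 and 125.

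Wide spans made up 82.6% of the lncRNA-only control peaks and 63.1% of the knockdown ones, where a span is a peak over 10000 bp. Over all peaks these shares were 14.15% and 9.96%. The median width of lncRNA-only peaks was 53662 bp for control (quartiles 24137 and 94980) and 34821 bp for knockdown (quartiles 810 and 93205), and that of all peaks 175 and 168 bp. The widest lncRNA-only peak covered 409147 bp. Each peak is written as a single block, so a width counts introns and is no length of RNA. Merged within a list, the lncRNA-only peaks covered 61.2 Mb for control and 27.95 Mb for knockdown. Of the control peaks 67.1% lay inside the span of 1 lncRNA gene, as did 74.8% of the knockdown peaks, and 25.8% and 21.9% touched more than 1 lncRNA gene. Widths up to 1000 bp were whole multiples of 25 for 98 of 111 control and 109 of 125 knockdown peaks.

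Most lncRNA-only control peaks had no counterpart after knockdown, whereas most knockdown ones had a control counterpart. A counterpart is a peak of the other list that overlaps by at least 1 bp on the same strand. Of the 929 control peaks 625 had none (67.3%, 64.2 to 70.2), beside 54.5% of all control peaks and 69.0% (64.5 to 73.2) of those in no gene. Of the 488 knockdown peaks 189 had none (38.7%, 34.5 to 43.1), beside 44.4% of all knockdown peaks and 44.6% (38.4 to 51.05) of those in no gene. The counterpart was itself an lncRNA-only peak for 297 of 304 shared control peaks and 299 of 299 shared knockdown peaks. The other list had a peak on the opposite strand at 27 of the 625 control and 16 of the 189 knockdown peaks.

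Where a wide span was shared, its ends were nearly always the same in both lists. Of the 236 shared control spans over 10000 bp, 234 had exactly the same start, end and strand as a knockdown span, and above 100000 bp 110 of 110 did. For protein-coding-only peaks over 10000 bp this was so for 393 of 601 shared control peaks (65.4%), for peaks of that width in no gene for 80 of 85 (94.1%), and for all peaks of that width 82.9%. Of the 767 lncRNA-only control spans 531 had no counterpart (69.2%, beside 58.6% of all control peaks over 10000 bp), and of the 308 knockdown spans 73 had none (23.7%, beside 24.5%). Up to 100000 bp these were 424 of 550 control spans (77.1%, beside 61.2%) and 69 of 194 knockdown spans (35.6%, beside 29.6%). Above 100000 bp they were 107 of 217 control spans (49.3%, beside 49%) and 4 of 114 knockdown spans (3.51%, 1.37 to 8.68, beside 4.12%). The widest knockdown spans thus nearly all stood in the control list too, at a share near that of all peaks of this width.

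Narrow lncRNA-only peaks were shared less in the knockdown list than wide ones. Up to 1000 bp, 80 of 125 knockdown peaks had no control counterpart (64.0%, 55.3 to 71.9, beside 49% of all knockdown peaks of this width). For protein-coding-only knockdown peaks up to 1000 bp the share was 50.4% (49.6 to 51.2), an interval that does not meet the former. For knockdown peaks up to 1000 bp in no gene it was 61.2% (50.55 to 70.8), which overlaps it. Of the control peaks 62 of 111 had no counterpart (55.9%, 46.6 to 64.7, beside 57.1%). Up to 200 bp the shares were 53.9% of 89 control peaks (beside 59.9%) and 67.9% of 106 knockdown peaks (beside 52.6%). Over 1000 and up to 10000 bp they were 62.7% of 51 control peaks (beside 40.7%) and 65.5% of 55 knockdown peaks (beside 39%). For all widths up to 10000 bp together they were 58.0% (beside 53.9%) and 64.4% (beside 46.6%). Of the shared control peaks up to 1000 bp, 12 of 49 had identical ends in both lists.

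**Figure D2:**
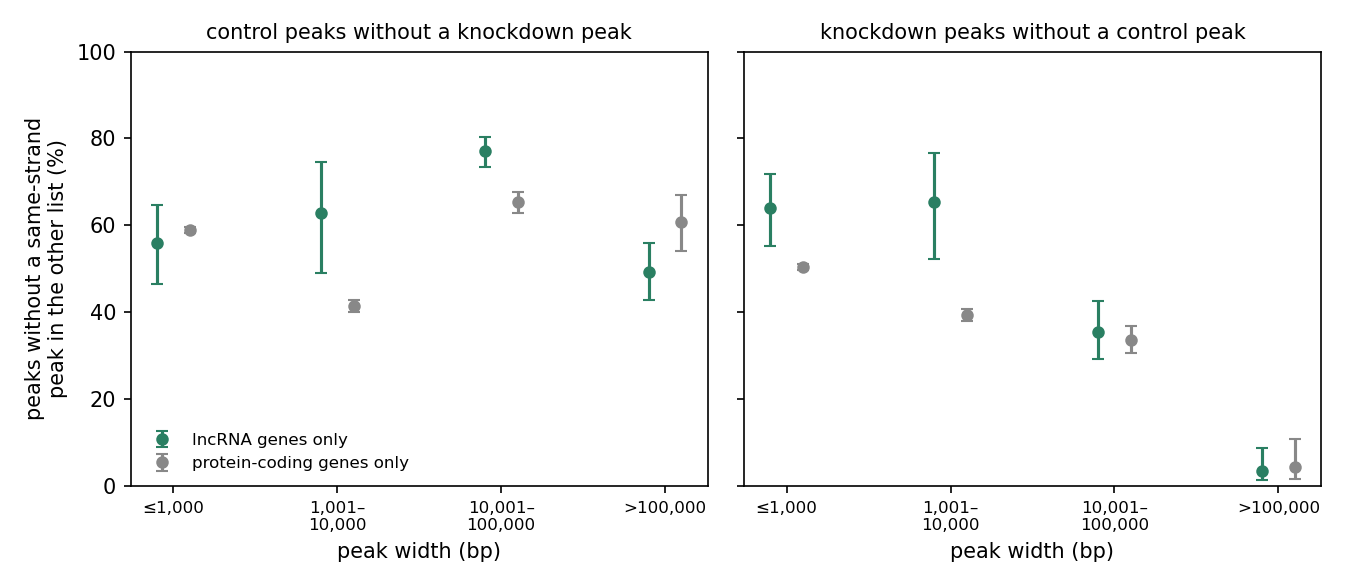
Percentage of peaks without a same-strand counterpart in the other list by peak width in bp, for control peaks (left) and knockdown peaks (right), in lncRNA genes only and in protein-coding genes only, with 95% Wilson intervals. The share of lncRNA-only knockdown peaks is 64.0% up to 1000 bp and 3.51% above 100000 bp.

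The score of a peak is the authors' own, on a scale that the labels do not state. Whether scores of both lists are on the same scale is unknown, so where a shared peak is given with its score in each, no difference is read from them, and a score cut applied to both may not keep the same kind of peak. Among control peaks the median was 13.4 for lncRNA-only and 12.2 for all peaks, and among knockdown peaks 12.4 for both. The lncRNA-only control peaks above 100000 bp had a median score of 19.8, and those up to 1000 bp one of 11.7. Scores of 0 stood at 72 control and 29 knockdown lncRNA-only peaks, of which 70 and 28 were over 10000 bp wide. An infinite score stood at 1 peak of each list.

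lncRNA-only peaks of higher score were shared more often than those with a score just above 10, as were peaks of all classes. With a score from 10 to 12, 80.9% of 262 control peaks (75.7 to 85.2) had no counterpart, beside 65.0% of all control peaks of that score. With 20 or more it was 42.2% of 218 (35.8 to 48.8, beside 36%). For knockdown peaks these shares were 51.9% of 185 (44.7 to 59.0, beside 56.5%) and 21.1% of 90 (13.95 to 30.6, beside 28.4%). The share of protein-coding-only control peaks without a counterpart was 56.1%. Weighted to the widths of the lncRNA-only peaks it was 62.3%, to their scores 51.95% and to both 63.4%, beside the 67.3% of the lncRNA-only peaks. For knockdown peaks the share was 47.0% unweighted, 32.0% by width, 45.7% by score and 33.55% by both, beside 38.7%.

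**Figure D3:**
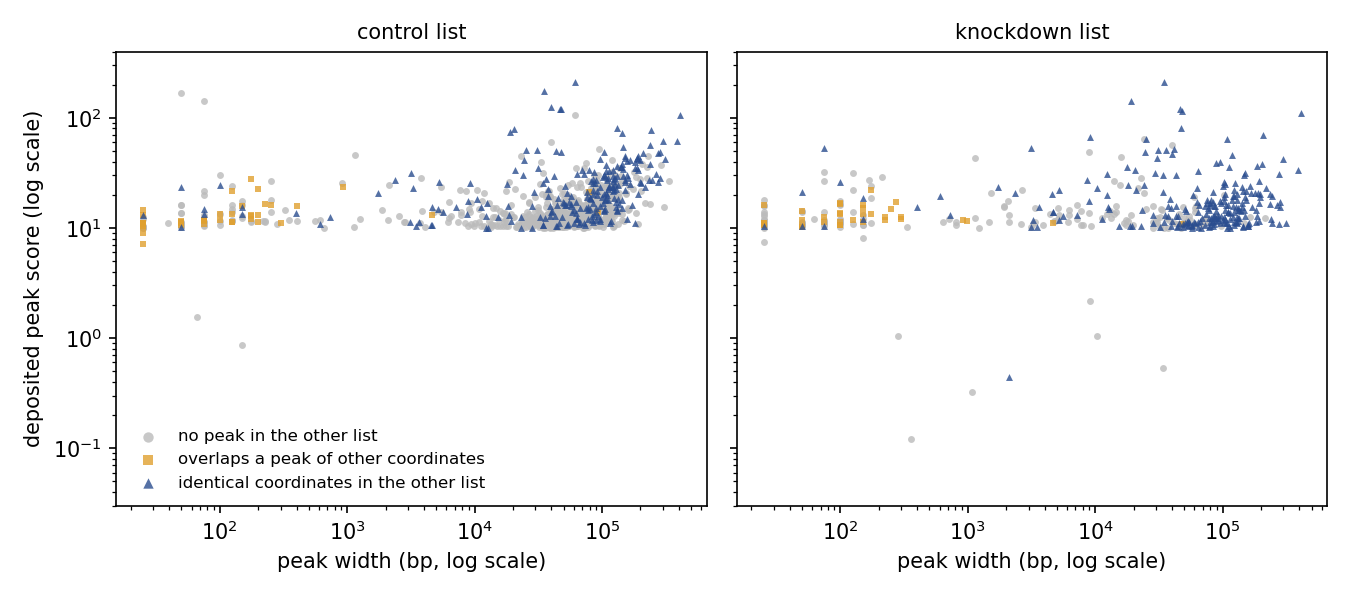
Deposited score against width in bp of each lncRNA-only peak, both on log scales, for control (left) and knockdown (right). Triangles are peaks with identical coordinates in the other list, squares other shared peaks and circles peaks without a counterpart, and scores of 0 and infinity are left out. Triangles gather above 10000 bp, where 234 peaks are identical between the lists, counting those left out of the figure.

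By gene, 1099 of the 18330 annotated lncRNA genes held an lncRNA-only peak. Of the 956 with control peaks of this kind 594 had no knockdown one (62.1%, 59.0 to 65.15). Of the 505 with such knockdown peaks 143 had no control one (28.3%, 24.6 to 32.4). For protein-coding genes, counted by peaks in protein-coding genes only, these shares were 29% and 19.6%. Some of these lncRNA genes did hold a peak of the other list that touched another kind of gene too. The number of peaks per gene was not matched, and 81.7% of the lncRNA genes with a control peak had only 1. By lncRNA-only peaks up to 1000 bp, 42 of 78 genes with a control one had no knockdown one (53.85%). Of 90 with a knockdown one, 54 had no control one (60.0%). For protein-coding genes by peaks of this width the shares were 33.7% and 23.3%. By peaks over 10000 bp, the lncRNA genes numbered 534 of 835 (63.95%) and 65 of 366 (17.8%). For protein-coding genes these shares were 53.9% and 37.9%, so the knockdown-only share at this width was lower for lncRNA genes. Genes with an lncRNA-only peak were long, with a median span of 45010 bp beside 8502 bp for lncRNA genes without one.

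The form of a symbol separates kinds of lncRNA gene. LINC marks intergenic lncRNAs, and 330 of 2309 such genes (14.3%) held an lncRNA-only peak, 188 of them control only, 38 knockdown only and 104 both. LOC marks genes without a proper name, and of 586 with a peak 332 were control only and 56 knockdown only. Antisense genes, read from the strand opposite another gene, held 50 control and 24 knockdown peaks on 51 genes. Divergent genes, which start beside another gene and run away from it, held 33 and 34 peaks on 35 genes, with 10 control only and 13 knockdown only. SNHG genes, hosts of snoRNAs, held 11 and 16 peaks on 8 genes, with 0 control only and 2 knockdown only. The median peak width was 75 bp on SNHG genes, 27163 bp on divergent genes and 66876.5 bp on LOC genes.

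NEAT1 and the snoRNA host SNHG16 had several narrow lncRNA-only peaks each. NEAT1, the scaffold of nuclear paraspeckles (chr11:65422798-65445540), had 4 control and 9 knockdown peaks, all on the plus strand and at most 275 bp wide. Each of its control peaks overlapped a knockdown peak. Its highest control score was 28.0, for a 175 bp peak from 65437574 to 65437748, and the knockdown peak there had a score of 15.3. The knockdown peaks without a counterpart included one of 125 bp at the lower end of the gene, from 65422799 to 65422923, with a score of 13.8. SNHG16 (chr17:76557764-76565348) had 4 control and 8 knockdown peaks, of which 2 in each list lay on the minus strand, opposite to the gene. Its 250 bp control peak from 76564432 to 76564681 was met by a 75 bp and a 150 bp knockdown peak with a gap between them.

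Of the 9 nuclear and architectural lncRNAs on a list drawn up for this purpose, 6 held 12 control and 16 knockdown peaks, all up to 1000 bp wide. Besides NEAT1, NORAD, a cytoplasmic decoy of PUMILIO proteins, had 1 control and 2 knockdown peaks. JPX and FTX, lncRNAs of the X inactivation centre, had 0 control peaks beside 2 and 1 knockdown peaks. With peaks that touch other kinds of gene too, JPX had 1 control and 3 knockdown peaks, and FTX 2 and 5. OIP5-AS1 had 2 and 1, and MEG3, described below, 5 and 1, so the higher sum after knockdown lay in NEAT1 and not in every gene of the list.

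Of the 27 snoRNA hosts looked up, 7 held 10 control and 15 knockdown peaks, and SNHG16 accounts for most of the difference. SNHG29 had 2 peaks in both lists, and its 75 bp peak from 16441074 to 16441148 was identical, with a score of 15.0 among control peaks and 53.2 among knockdown peaks. SNHG11 had 1 overlapping peak in both lists, and SNHG15 1 in each at different places. SNHG1 had 0 and 1, the latter 75 bp wide with a score of 32.4. These are differences of a few peaks per gene, with no spread between replicates to set them against.

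Of the 28 microRNA hosts, 7 held 7 control and 11 knockdown peaks. MIR4435-2HG had 3 and 5, all narrow and on the strand of the gene. MIR17HG, host of the miR-17-92 cluster, had 1 control and 2 knockdown peaks that did not overlap it. DLEU2, host of miR-15a and miR-16-1, had 0 and 2, of 5114 and 6244 bp. Counting peaks that touch other kinds of gene too, DLEU2 had 3 and 6. MIR100HG had the same 57328 bp span in both lists, with scores of 16.65 and 10.1. MIR181A1HG had 1 and 0, and MIR222HG 0 and 1.

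Of the 33 tumour-associated lncRNAs, 7 held 5 control and 4 knockdown peaks. CRNDE, raised in colorectal tumours, had 0 control peaks and 2 knockdown peaks of 25 and 75 bp. FIRRE, which takes part in nuclear organisation, had 0 and 1, of 8951 bp with a score of 48.6. LINC-PINT had 1 in each list, at different places. CASC15, CASC19 and CYTOR had 1 control and 0 knockdown peaks, and the CYTOR peak, with a score of 8.98, overlapped a knockdown peak that touched another kind of gene as well. CASC19 also had 1 knockdown peak that touched another kind of gene.

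**Figure D4:**
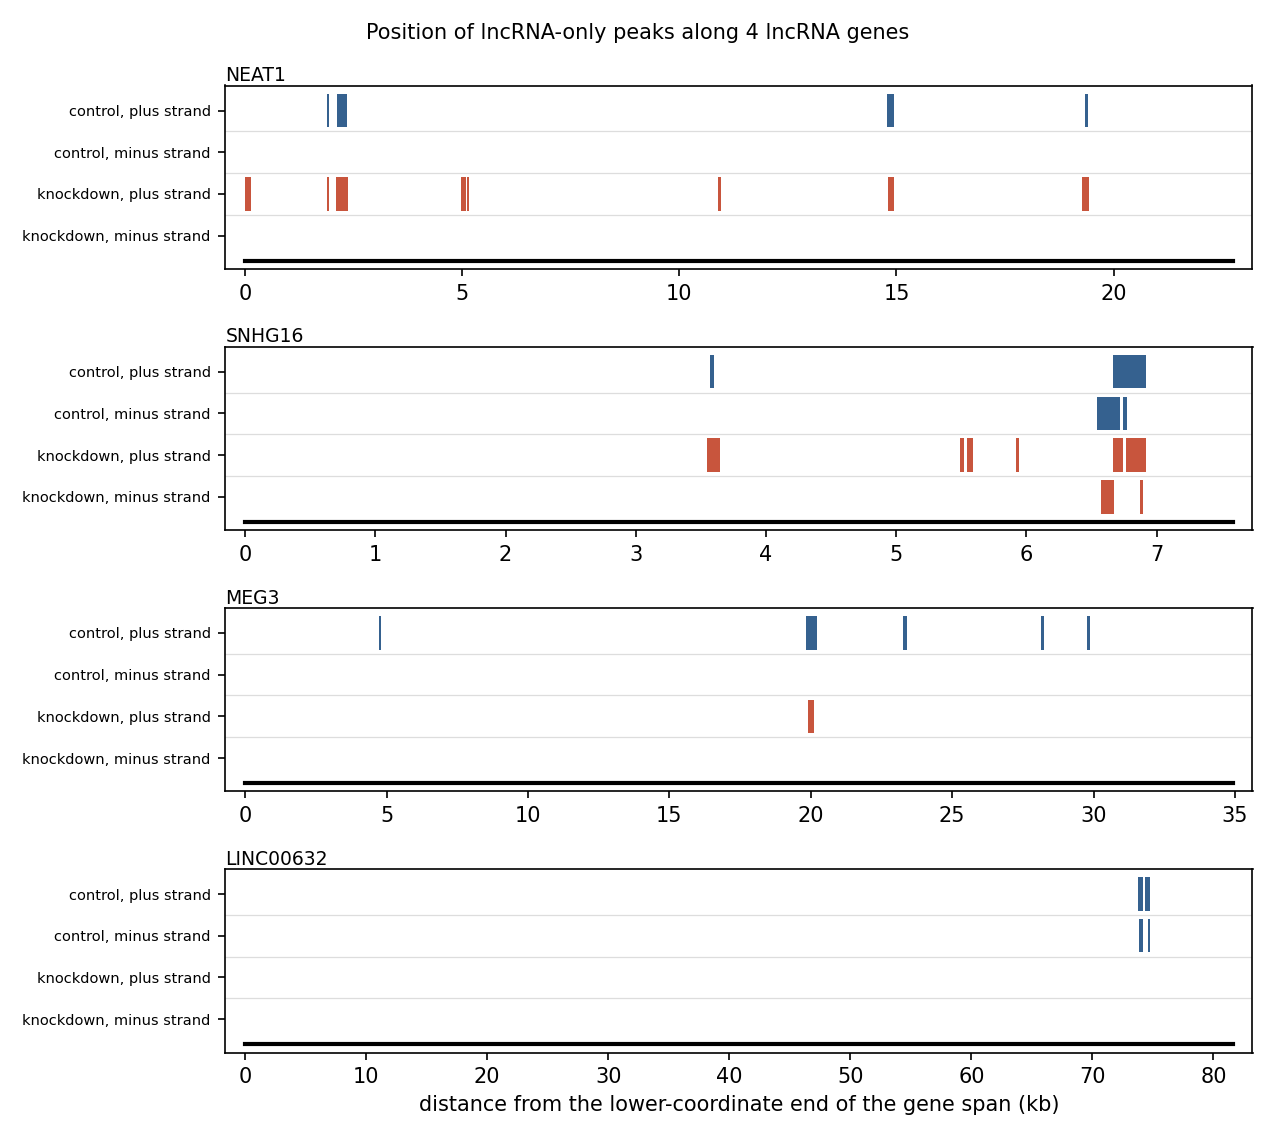
Positions of lncRNA-only peaks along NEAT1, SNHG16, MEG3 and LINC00632, by list and strand, as distance in kb from the lower-coordinate end of the gene span (black line). The narrowest peaks are drawn at a fixed least width. NEAT1 has 4 control and 9 knockdown peaks, and LINC00632 has 6 control peaks close together and 0 knockdown peaks.

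lncRNAs known from the nervous system held 22 control and 5 knockdown peaks, on 8 of the 29 looked up, beside 929 and 488 over all lncRNA genes. Of these, 13 and 2 were up to 1000 bp wide. LINC00632, the host transcript of a circular RNA abundant in brain (chrX:140709759-140791357), had 6 control and 0 knockdown peaks. They were 39 to 325 bp wide, with scores from 10.5 to 16.0, and 2 of them lay on the minus strand opposite to the gene. All 6 lay close together, from 140783490 to 140784539, and some overlapped across strands, so they need not be separate sites. MEG3, a maternally expressed imprinted lncRNA (chr14:100826108-100861026), had 5 control peaks and 1 knockdown peak. Its 400 bp control peak, of score 15.8, contained the 225 bp knockdown peak, of score 11.7, and the other 4 control peaks had no counterpart. RMST and SOX2-OT, linked to neural progenitors, had 2 wide control spans each and 0 knockdown spans, and 1 of the RMST spans had a score of 0. The wider SOX2-OT span, of 46865 bp with a score of 23.1, lay on the strand opposite to the gene. SNHG14, the long host transcript of the Prader-Willi region, had 2 and 1. The list was drawn up with results on neuronal genes in these data known, so its direction is not independent evidence.

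Among other genes with many fewer knockdown peaks, MEF2C-AS1 and LINC03000 had wide spans. MEF2C-AS1 (chr5:88883330-89467581) had 4 control spans of 35311 to 74075 bp, with scores from 10.3 to 14.3, and 0 knockdown peaks. LINC03000 had 6 and 2, and both knockdown spans, of 145326 and 48751 bp, were copies of control spans. A difference of 4 fewer was seen at 5 genes, which were MEF2C-AS1, LINC03000, MEG3, PTCHD1-AS and MIR9-2HG, the last 2 with 4 and 0 and named after their values were seen. All 5 MEG3 control peaks and 2 of the 4 on MIR9-2HG were up to 1000 bp wide. In the other direction NEAT1 had 5 more, SNHG16 4 more, and 12 genes had 2 more. MIR4300HG had 6 and 3 spans and LINC02147 5 and 4, and each of their knockdown spans was an exact copy of a control span. LINC01122 had 4 and 2, of which 1 of 121979 bp was in both lists and a knockdown span of 24196 bp, with a score of 64.2, had no control counterpart. LOC105369225 had 3 and 5 peaks, among them a 3143 bp peak identical in both lists.

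**Figure D5:**
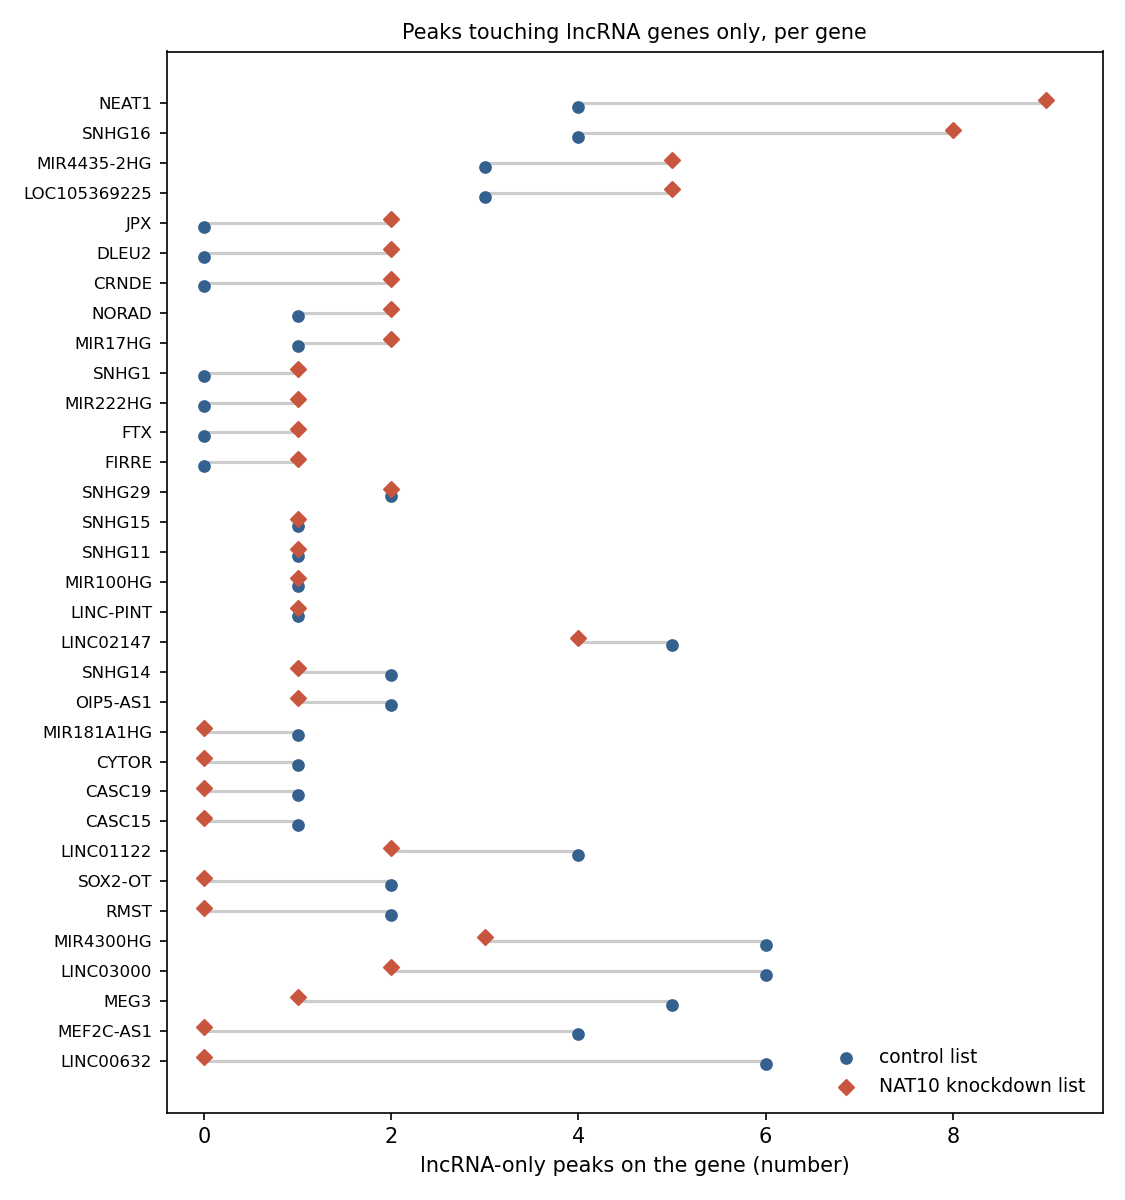
Number of lncRNA-only peaks per gene, control (circles) and knockdown (diamonds), for genes with the most peaks, the largest differences or a place on a list. NEAT1 (4 and 9) and SNHG16 (4 and 8) are at the top and LINC00632 (6 and 0) at the bottom.

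Of genes with peaks in both lists, the highest scores lay on wide spans, identical between the lists. DANT1 and DANT2, transcripts associated with a macrosatellite repeat of the X chromosome, shared a 61662 bp span with a control score of 210.0 and an infinite knockdown score. LOC105375704 had a 34957 bp span, scored 176.8 for control and 213.4 for knockdown. CYKILR and LOC124904707 shared a pair of spans of 46658 and 47730 bp on opposite strands of chromosome 19, with control scores of 120.6 and 119.9. LINC01492 had a 19081 bp span, scored 73.9 and 141.0, and LOC105376095 one of 40059 bp, scored 125.3 and 47.35. LOC105374058 was touched by the span of 409147 bp, which lies on the strand opposite to it, with scores of 104.9 and 109.7.

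Of genes with lncRNA-only peaks in the control list alone, the 2 highest scores lay on narrow peaks. A 50 bp peak at chr6:26522459-26522508 on HCG11 had a score of 166.4 and also lay within LOC107986583 on the other strand. OVCH1-AS1 had a 75 bp peak of score 140.7 and a 100 bp one of score 30.35. The next were wide, a 61537 bp span of score 107.0 shared by LOC101927314 and LOC107986627, a 39614 bp span of score 60.7 on LOC124903183 and a 94789 bp span of score 52.4 shared by LOC101927413 and LOC107984017.

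Of genes with lncRNA-only peaks in the knockdown list alone, LOC105377619 and LOC124900882 had the highest score, 56.1, on a 40242 bp span that also touched FRG1-DT, a gene with control peaks. CCDC144NL-AS1 had a 15807 bp span of score 43.9. NR2F1-AS1, antisense to a nuclear receptor gene, had a 1135 bp peak of score 43.4. Counting peaks that touch other kinds of gene too, NR2F1-AS1 had 4 control and 3 knockdown peaks and JPX 1 and 3. LOC100507002 had a 214 bp peak of score 28.7, and the higher of the JPX peaks, 125 bp wide, had 31.25.

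The strand of the gene is given for 11461 of the 18330 lncRNA genes. Where it is, 491 control peaks lay on the strand of an lncRNA gene they touched and 65 on the opposite one (88.3% on the same strand), and 264 and 36 knockdown peaks did so (88.0%). The share without a counterpart was 69.25% for control peaks on the gene's strand (65.0 to 73.2) and 67.7% for those on the opposite strand (55.6 to 77.8). A peak of the same list on the other strand overlapped 95 control and 41 knockdown lncRNA-only peaks. lncRNA-only peaks were 6.21% of all control peaks on chromosome 4, 6.07% on chromosome 8 and 0.519% on chromosome 19. Chromosome 2 held the most, 108 control and 54 knockdown. Of the autosomes and X, chromosome 17, with 21 and 26, was the only one with more knockdown peaks, and SNHG16 and LOC105369225 lie on it.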

How the data were processed

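Immunoprecipitate and input libraries of RBE cells, 3 of each per arm, underlie 2 deposited peak lists of 12 columns. The submitters' processing notes name fastp 0.20.1, Bowtie2 2.4.1 and build hg38. Which peak caller and threshold were used, and how inputs and replicates entered, is not stated in the labels. The score in each list is the authors' deposited value per peak. One list was assigned to sh-NC by its name, and the list that remained was taken as that of sh-NAT10.

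Gene spans came from a RefSeq table (GRCh38.p14) without exons, and gene strand and start sequences from RefSeq windows, which cover part of the genes. Overlaps used bedtools 2.31.1 with Python 3.11.15, NumPy 2.4.6, pandas 2.3.3, SciPy 1.17.1 and matplotlib 3.10.9, and the rules were tested on simulated data. Intervals are 95% Wilson intervals, those of a ratio derived from the knockdown share of both counts. Genes that overlap, lie antisense or have near-identical copies cannot always be separated.

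Named genes are the 8 with the highest finite score among genes with control peaks only, knockdown peaks only and both, the 6 with the most lncRNA-only peaks, the 4 with the largest drop and rise (ties by symbol), and up to 6 of each of 5 lists. Chromosome Y is counted but not described. The peaks and gene lists were chosen with earlier results of these data known. Alternatives covered overlap, assignment, width, score, list length and strand.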

Additional observations from a re-analysis of the deposited data

How the results depend on the processing

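The lower number of lncRNA-only peaks in the knockdown list (52.5% of control) turned when wide peaks were left out, to 113% up to 1000 bp (111 control, 125 knockdown) and 111% up to 10000 bp (162 and 180). It was 61.0% with assignment by peak midpoint, 41.3% at a score of 20 or more (218 and 90), and 65.4% with the control list shortened by score to the length of the knockdown list. On the strand of the gene, which also leaves out peaks classed as of unknown gene strand, 491 and 264 peaks were left. The share of control peaks without a counterpart (67.3%) became 42.2% at a score of 20 or more, 55.9% up to 1000 bp, 58.0% up to 10000 bp and 60.5% by midpoint. The knockdown share (38.7%) became 21.1% at a score of 20 or more, 64.0% up to 1000 bp, 64.4% up to 10000 bp and 43.9% on the strand of the gene. Genes in the control list only, the knockdown list only and both numbered 187, 32 and 79 at a score of 20 or more, 42, 54 and 36 up to 1000 bp, and 1442, 461 and 1614 counting every peak that touches an lncRNA gene. These settings keep other or fewer peaks, and a score cut assumes a common scale that is not stated. Those limited to 10000 bp or to the gene's strand, and the merging of peaks, were chosen after seeing the data. No paired analysis was possible because 1 list per arm was deposited and none per replicate. Depth is unknown, so a missing peak is no evidence of missing acetylation.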

Other observations

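Many peaks on lncRNA genes fall outside the rule because they also touch another kind of gene. Peaks that touch both lncRNA and protein-coding genes, and nothing else, came to 2414 control and 1833 knockdown peaks (75.9%). MALAT1, an abundant lncRNA of nuclear speckles, had 26 control and 29 knockdown peaks, none of which met the rule. On the nervous system list, all peaks that touch its genes numbered 66 and 13, among them 20 and 4 on SNHG14 and 12 and 0 on GRM5-AS1. For the snoRNA hosts they numbered 35 and 24, against 10 and 15 that touch lncRNA genes only, a turn that rests on SNHG14. Without it they numbered 15 and 20, against 8 and 14 that touch lncRNA genes only.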
